A study of Mus musculus with 17 samples.

Results

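The 10 imprinted genes Snrpn, Peg3, Meg3, Kcnq1ot1, Grb10, Gnas, Plagl1, Peg10, Nnat and H19 were followed through maps of open chromatin in neurons of the mouse nucleus accumbens, a striatal region of the brain's reward circuit. Their members among the data were the regions called open that overlapped a gene body extended by 10 kb on each side. Gene coordinates were those of GENCODE on the mm10 (GRCm38) assembly. A region joins overlapping peaks of all libraries, so its width can exceed that of any 1 peak. The 10 windows held 55 of the 147420 regions that were called in at least 2 libraries of 1 group. The windows held 100 merged regions before that criterion, of which 33 came from 1 library. Of the 55 regions, 20 (36.4%) were called in all 17 libraries, against 36847 (25%) of the 147420.

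The maps came from ATAC-seq of neuronal nuclei sorted with an antibody to NeuN; the assay uses a transposase that inserts sequencing adapters into open DNA. All mice were C57BL/6 (C57BL/6J in the methods of the study), aged 52 to 54 days, and each library pooled the nucleus accumbens of 3 animals. The cocaine groups received 10 mg/kg cocaine intraperitoneally and were taken 1 hour later, and the control groups received no cocaine. An injection of vehicle was not described for the controls, so injection and cocaine cannot be told apart. Females in diestrus and females in proestrus each gave 3 control and 3 cocaine libraries, and males gave 3 control libraries and 2 after cocaine. Diestrus is the low-estrogen and proestrus the high-estrogen stage of the cycle, and the stage of 1 diestrus cocaine library was known from its title alone.

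Imprinted genes are expressed mainly from 1 parental copy, under imprinting control regions that carry DNA methylation on 1 of the copies. The methylated copy of such a region is bound by the zinc-finger protein ZFP57 and its partners. In many clusters the unmethylated copy carries the promoter of a long noncoding RNA that silences its neighbours, as at Kcnq1ot1. At H19 and Igf2 the unmethylated copy instead binds the insulator protein CTCF. Several of these genes are expressed in neurons, where the parental preference can differ from that in other tissues, as for Grb10. The mice were of 1 inbred strain, so the parental copies could not be told apart in these data. In such pooled nuclei, fewer cells with an open site and a weaker opening in each cell also cannot be told apart.

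The level used below is the fold enrichment that the peak caller gave at the highest summit in a region. It is the read pileup over a background that was 1 value for the whole library. Depth was read from the same values. The background pileup lay between 6.26 and 9.55 reads per position across libraries, and the number of peaks between 99789 and 157005 outside the male cocaine group, which had 87707 and 75458. The median fold enrichment over the 36847 common regions was 7.44 to 8.03 in male controls, 5.35 and 5.58 in male cocaine and 5.4 to 7.95 in females. Differences were therefore tested on the log2 scale after subtracting each library's median. All 6 neuronal markers had a peak over an annotated start in all 17 libraries. No library had one for any of 4 endothelial markers or for the microglial Cx3cr1, C1qa and Tmem119, and 1 library had one for the microglial P2ry12. Among glial markers, Mbp reached 17 and Gfap 14 libraries, while Aqp4, Aldh1l1, Slc1a3, Mog and Mag reached 0 to 2.

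Sequence was read at the summits that carry the results, 100 bases on each side on the plus strand of GRCm38, with capitals marking matches to 1 of 5 motifs on either strand. The motifs were TGCCGC for ZFP57, GGNGGCAG as a core of the CTCF motif, GCCATNTT as a core of the YY1 motif, TGACTCA and its reverse complement TGAGTCA for AP-1, and TGACGTCA for the cAMP response element. The first 7 sequences lie at start regions, the eighth upstream of H19, and the last 2 at the Gnas and Peg10 regions that differed in opposite directions between male and female controls. Each name gives the distance of the summit from the 5′ end of the gene.
Peg3 +1.8 kb, chr7:6728561-6728761: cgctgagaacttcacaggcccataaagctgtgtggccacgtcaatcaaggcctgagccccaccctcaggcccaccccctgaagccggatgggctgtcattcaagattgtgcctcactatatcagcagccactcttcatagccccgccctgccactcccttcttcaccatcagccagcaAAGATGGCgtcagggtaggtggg
Snrpn +135.9 kb, chr7:60004218-60004418: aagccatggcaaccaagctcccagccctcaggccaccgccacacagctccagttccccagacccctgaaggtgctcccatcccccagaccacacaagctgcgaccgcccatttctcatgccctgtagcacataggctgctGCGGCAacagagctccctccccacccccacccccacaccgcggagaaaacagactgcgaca
Kcnq1ot1 -0.1 kb, chr7:143296531-143296731: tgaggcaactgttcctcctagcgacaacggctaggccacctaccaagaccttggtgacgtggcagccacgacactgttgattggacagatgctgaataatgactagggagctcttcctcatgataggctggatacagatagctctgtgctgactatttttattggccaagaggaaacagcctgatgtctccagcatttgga
Plagl1 +30.2 kb, chr10:13090558-13090758: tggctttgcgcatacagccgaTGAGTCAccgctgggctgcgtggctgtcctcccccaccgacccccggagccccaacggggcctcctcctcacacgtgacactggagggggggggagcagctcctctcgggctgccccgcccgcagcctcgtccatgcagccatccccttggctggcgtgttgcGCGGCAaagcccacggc
Grb10 +12.3 kb, chr11:12026315-12026515: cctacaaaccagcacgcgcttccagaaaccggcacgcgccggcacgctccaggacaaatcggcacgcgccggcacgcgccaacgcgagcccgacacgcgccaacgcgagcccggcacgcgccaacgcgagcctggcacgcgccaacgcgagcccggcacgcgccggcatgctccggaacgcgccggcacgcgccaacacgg
Gnas +43.2 kb, chr2:174327420-174327620: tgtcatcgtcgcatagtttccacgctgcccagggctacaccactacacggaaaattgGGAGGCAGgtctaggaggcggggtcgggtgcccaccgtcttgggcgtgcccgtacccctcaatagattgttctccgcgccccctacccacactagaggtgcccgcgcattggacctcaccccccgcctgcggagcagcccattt
Meg3 +2.0 kb, chr12:109542915-109543115: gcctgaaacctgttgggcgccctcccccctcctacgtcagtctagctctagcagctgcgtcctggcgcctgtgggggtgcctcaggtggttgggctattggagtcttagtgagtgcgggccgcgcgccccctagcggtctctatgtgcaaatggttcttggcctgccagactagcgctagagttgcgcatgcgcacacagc
H19 -3.8 kb, chr7:142581864-142582064: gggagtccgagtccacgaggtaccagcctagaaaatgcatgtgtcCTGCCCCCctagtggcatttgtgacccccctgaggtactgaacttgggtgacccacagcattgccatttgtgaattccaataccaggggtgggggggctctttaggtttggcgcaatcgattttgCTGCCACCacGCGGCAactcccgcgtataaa
Gnas +60 kb, chr2:174344201-174344401: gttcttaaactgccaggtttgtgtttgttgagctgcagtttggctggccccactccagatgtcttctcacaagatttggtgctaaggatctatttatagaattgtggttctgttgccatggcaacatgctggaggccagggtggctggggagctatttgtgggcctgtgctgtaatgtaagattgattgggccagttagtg
Peg10 +15.2 kb, chr6:4762368-4762568: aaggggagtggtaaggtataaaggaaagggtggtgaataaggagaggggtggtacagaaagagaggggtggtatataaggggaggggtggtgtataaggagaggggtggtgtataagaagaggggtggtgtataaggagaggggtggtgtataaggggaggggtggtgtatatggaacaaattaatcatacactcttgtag
ZFP57 letters stood within 100 bases of the summit in 3 of the 55 regions (5.45%), against 3.92% of all 147420 kept regions. The 3 were the Snrpn start region, the Plagl1 start region and the region 3.8 kb upstream of H19. The CTCF core stood in 6 (10.9%) against 7.71%, the YY1 core in 4 (7.27%) against 3.17%, AP-1 in 6 (10.9%) against 10.1%, and the cAMP response element in 0 against 0.498%. Over whole regions, the Snrpn start region held 10 ZFP57 matches, Nnat 9, Peg3 8 and Plagl1 6, while the 7352 bp Peg3 region held 12 YY1 matches and the 561 bp H19 region 3 CTCF matches. For matches over whole regions no share over all regions was formed, and the widths of these regions differed, from 561 bp at H19 to 8659 bp at Nnat. Such matches describe letters and not bound sites. The Grb10 summit held 40 CpG dinucleotides in 201 bases, the Gnas and Peg10 summits at the end of the list none. The Peg10 summit lies in a tandem repeat, in which 73.1% of bases equalled the base 19 positions further on. At least 70% did so at some distance of 3 to 40 bases in 1 of the 55 regions (1.82%) and in 0.237% of all kept regions.

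Which of the annotated starts were open differed sharply among the genes. Transcript starts no more than 500 bp apart were grouped, which gave 35 start groups for the 10 genes. A peak lay over 11 of these in all 17 libraries and over 14 in no library. Each gene apart from H19 had at least 1 start open in all 17.

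Snrpn encodes a neuronal splicing protein and shares its promoter with Snurf. Its start at chr7:60005111 was covered in 17 of 17 libraries by a region of 3374 bp, chr7:60002551-60005924, with a fold enrichment of 4.36 to 6.41. No library had a peak over the far upstream start at chr7:60140219. Between the 2 starts, 2 intronic regions were called in all 17, one 92.2 kb and the other 41.5 kb from the 5′ end of the gene, at 3.8 to 6.65 and 3.07 to 5.58.

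Peg3 encodes a zinc-finger protein linked to maternal behaviour and shares a bidirectional promoter with Usp29. The region over both starts, chr7:6726074-6733425, spanned 7352 bp and had the highest level of the 55 in 15 of 17 libraries, the Meg3 start region being higher in proestrus cocaine 1 and 4. Its fold enrichment was 36, 52.9 and 48.9 in diestrus controls, 44.6, 34.3 and 21.7 in diestrus cocaine, 25.8, 34.6 and 37.4 in proestrus controls, 26.2, 37.4 and 22.9 in proestrus cocaine, 37, 31.7 and 35.2 in male controls, and 33.3 and 30 in male cocaine. In each library this stood between the 97.7th and the 99.7th percentile of that library's regions. The start of Zim1, an imprinted zinc-finger gene in the same window, was open in all 17 libraries at 4.4 to 11.2.

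Meg3 is a maternally expressed long noncoding RNA at the head of a cluster that continues into Rtl1, Rian and Mirg. Open chromatin covered its window to an extent seen at few genes: on average 58.5% of the window was under peaks, above 99.5% of the 30018 gene windows, whose median was 3.3%. The start region, chr12:109538453-109544181, reached 16.7 to 39.1. Downstream of it, merged regions of 22954 bp and 18550 bp held a peak in all 17, with highest summits 15 kb and 41.4 kb from the start. The second lies beyond the gene and over the first microRNAs of the cluster. Its summit lies past the window, which ends at chr12:109581726. Peaks did not fill these spans in each library: at 20.7 kb 6 of the 17 had one, and at 31.5 kb 5. The level of a library is that of its highest peak in the span, wherever that peak lies. Nnat, which encodes the membrane proteolipid neuronatin and lies in an intron of Blcap, was also covered broadly, over 31.2% of its window on average. One region of 8659 bp, chr2:157559190-157567848, held its start and starts of Blcap. The level of this region was 8.84 to 17. Its highest summit lay 6.4 kb from the Nnat start, beside the Blcap starts at chr2:157566331-157566361.

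Kcnq1ot1, the noncoding RNA that starts in an intron of Kcnq1, had 1 strong region in a window of 113.1 kb. This region over its start, chr7:143295573-143297076, reached 11.1 to 21.1, and 1.14% of the window was covered on average. Peg10, a retrotransposon-derived gene, and Sgce share a bidirectional promoter, which lay in a region called in all 17 libraries (chr6:4746529-4750310). The level of this region was 12.6 to 25.5, and its highest summit lay 2.0 kb from the Peg10 start, inside Peg10.

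Grb10 encodes an adaptor of insulin receptor signalling and has separate starts used in brain and in other tissues. None of the 17 libraries had a peak over the starts at chr11:12038683 and chr11:12037401. The internal starts at chr11:12026324-12026732 were covered in 17 of 17, by a region of 3464 bp with a fold enrichment of 7.23 to 12.8. Gnas encodes the stimulatory G protein alpha subunit and has several promoters. The 5′ most start was covered in 1 library and the start at chr2:174297859 in none, while the starts at chr2:174327570-174328023 and chr2:174330006-174330287 were covered in all 17 at 9.01 to 15.1 and 5.07 to 12.4. The antisense transcript Nespas had a weak peak over its start in 10 of 17, at 2.62 to 4.06. For Plagl1, a zinc-finger growth regulator, the internal starts at chr10:13090691-13091013 were covered in 17 of 17 at 6.84 to 14.7 and the 5′ most start in 4.

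H19, a noncoding RNA, had no peak over either start group in any library. Upstream of it, in the stretch known to hold the imprinting control region, 2 weak regions were called in 4 libraries each. The region 3.8 kb upstream, chr7:142581632-142582192, was called in male controls at 4.21, 2.62 and 2.74 and in proestrus cocaine 2 at 3.42. The region 2.5 kb upstream, chr7:142580366-142580821, was called in diestrus controls 1 and 3 at 2.97 and 2.8 and in male controls 1 and 3 at 3.31 and 2.85. Each was without a call in 13 libraries, and a missing call does not show that the site was closed.

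**Figure D1:**
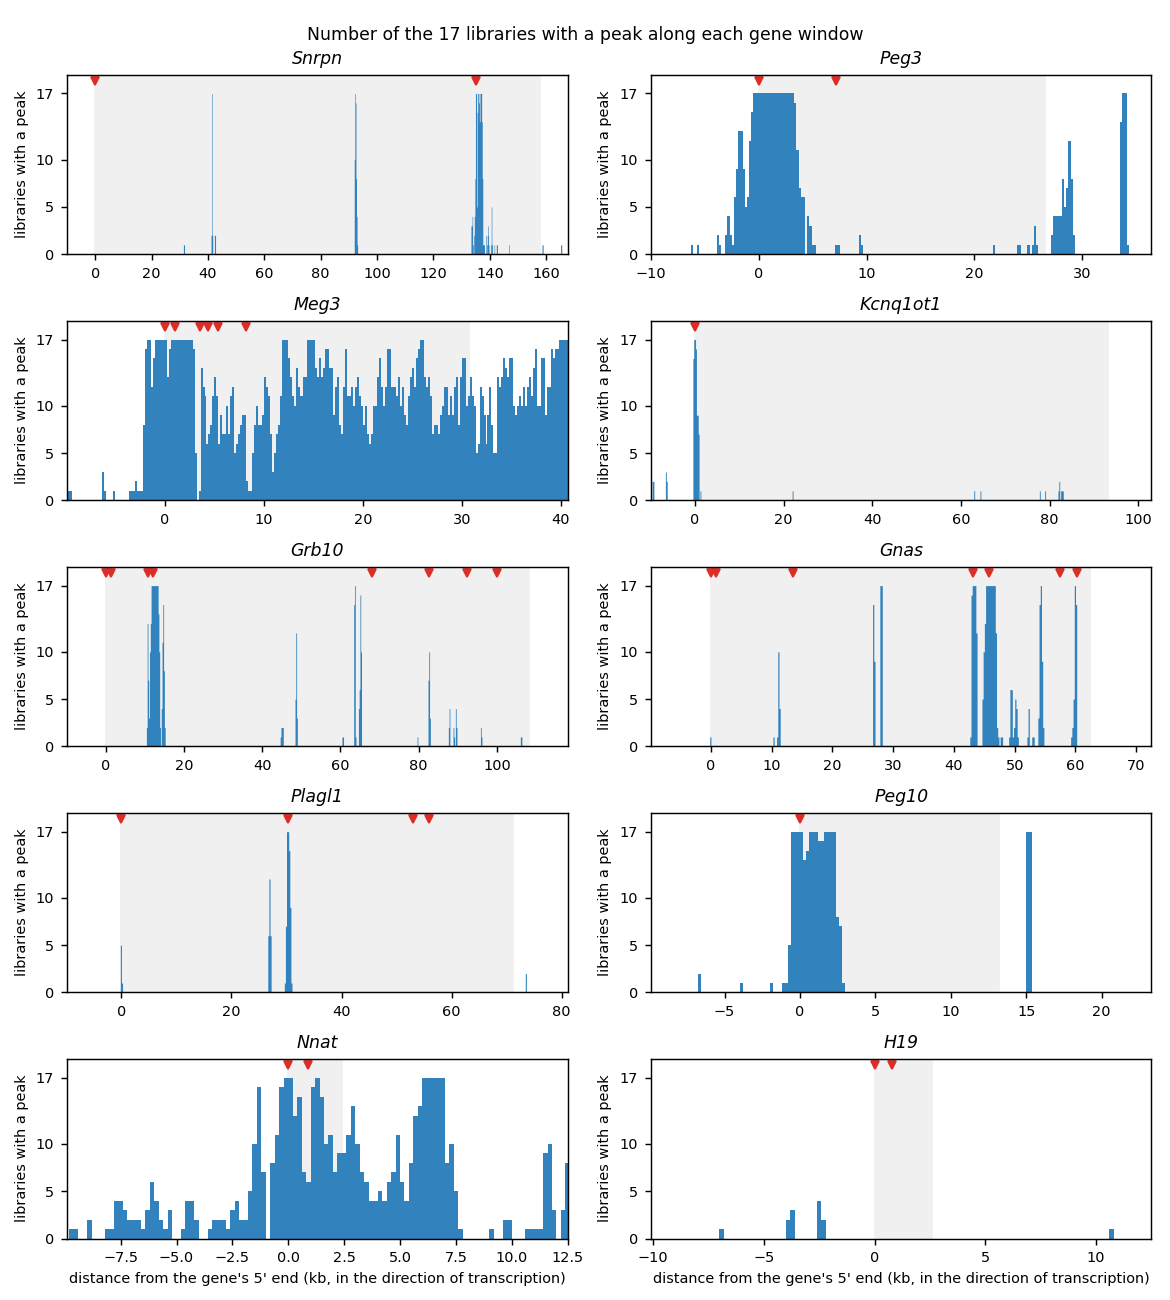
Number of the 17 libraries with a peak (vertical axis) against distance from the 5′ end of each gene in kb (horizontal axis). Grey marks the gene body and red triangles the annotated transcript starts; the starts of Snrpn, Grb10, Gnas and Plagl1 with 17 libraries lie inside the gene, and those of H19 have none.

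The 20 regions open in all libraries had a median width of 1387 bp against 1742 bp for the 36847, and 9 of them were broader than 2000 bp (45% against 43.2%). Their median GC content was 50.2% against 47%, and their median ratio of observed to expected CpG was 0.373 against 0.272. Their median level, as mean log2 fold enrichment, was 3 against 2.65. The start regions ranged from a CpG ratio of 0.361 at Meg3 and 0.374 at Snrpn to 0.803 at the downstream Gnas start.

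**Figure D2:**
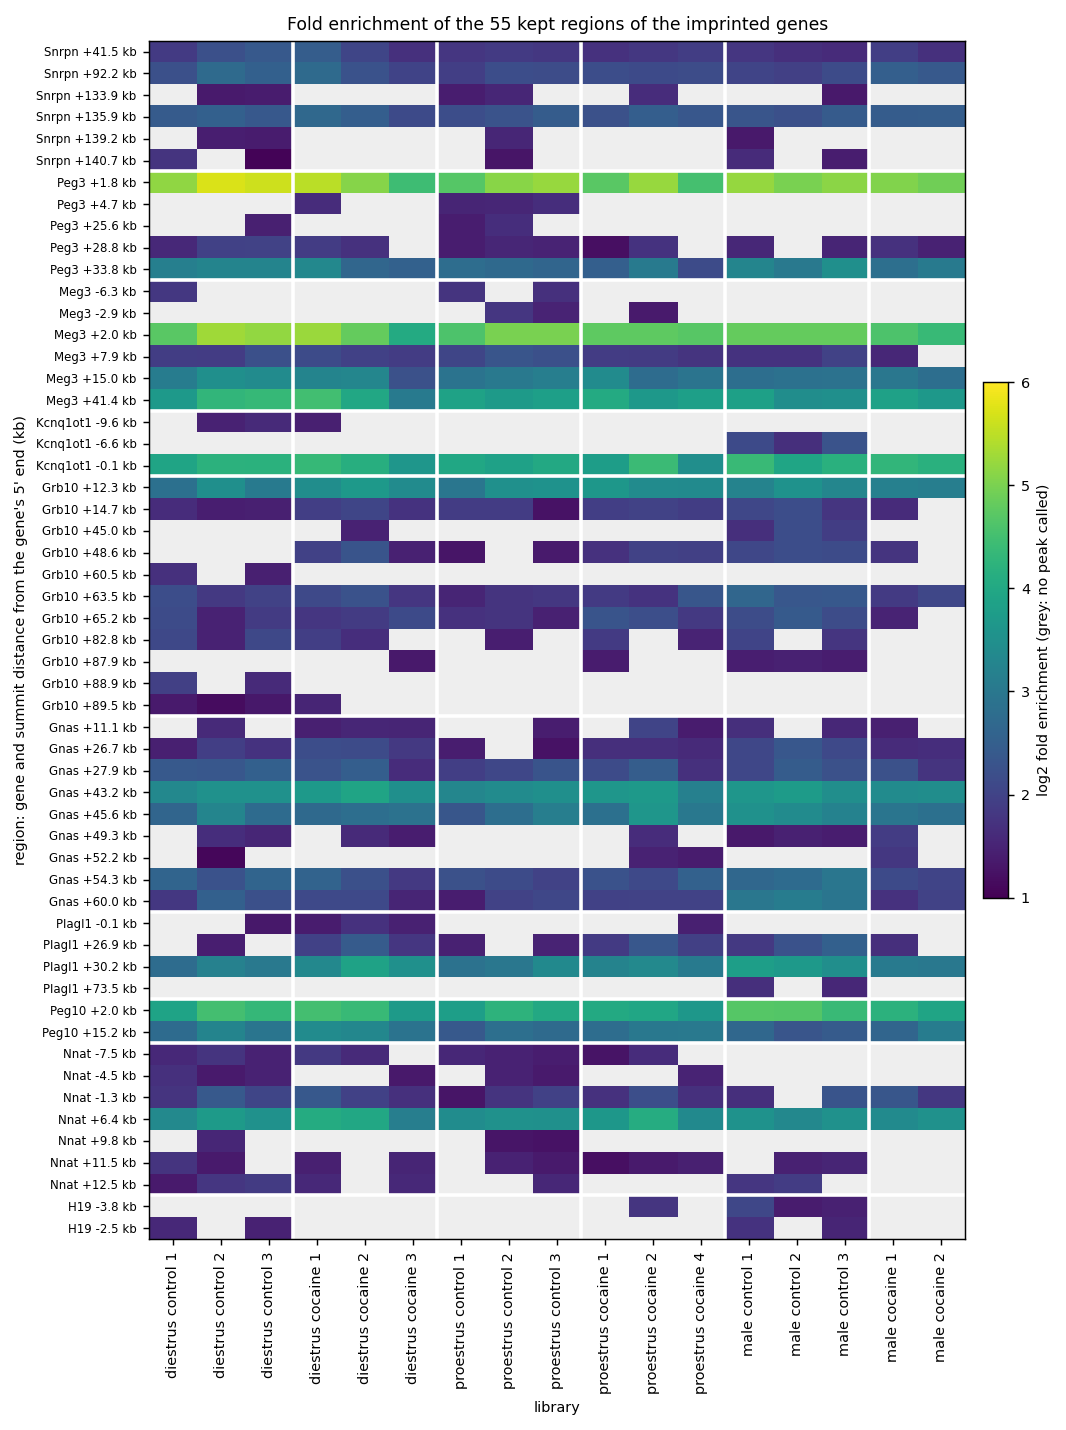
Log2 fold enrichment (colour) of the 55 regions (rows, named by gene and distance of the summit from the 5′ end in kb) in the 17 libraries (columns). Grey cells had no peak; 20 rows are filled in all 17 libraries, with the Peg3 region at +1.8 kb and the Meg3 region at +2.0 kb the brightest.

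Sex differences were examined first in the animals that had received no cocaine, by comparing the 3 male controls with the mean of both female control groups. Of the 20 regions, 7 were lower in males (background 14.4% of 36847) and 1 was higher (background 10.5%), by limma with Benjamini-Hochberg adjustment at 0.05. The median difference was -0.23 for the 20 and -0.04 for all. The 36847 regions include those of the X chromosome, which differs in copy number between the sexes. All members are autosomal, and shares over autosomes alone were not formed. The lower regions were the 3 of Meg3, both intronic regions of Snrpn, the Peg3 start region and the region downstream of Peg10. The higher region lay in an intron of Gnas near its 3′ end.

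All 3 Meg3 regions were lower in male controls. At the start region the fold enrichment was 26.2, 39.1 and 36.6 in diestrus controls, 24.2, 31.8 and 32 in proestrus controls and 28.2, 28.1 and 28.4 in male controls. After centring, male controls were lower by 0.44 on the log2 scale (log2 difference -0.44, SE 0.13, adjusted p = 0.0123 by limma). For the region 15 kb into the gene, the values were 8.52, 11.3 and 10.7 in diestrus controls, 7.5, 8.12 and 8.81 in those in proestrus and 7.01, 7.3 and 7.35 in male controls, a log2 difference of -0.62 (SE 0.142, adjusted p = 0.0016 by limma). At 41.4 kb the values were 12.9, 19.5 and 20.4 in diestrus controls, 14.8, 13.3 and 14.2 in those in proestrus and 14.4, 11 and 11.2 in male controls, with a difference of -0.66 (SE 0.145, adjusted p = 0.00107 by limma). Uncentred values of males and females overlapped at the start and at 41.4 kb, whereas at 15 kb all male controls lay below all female controls. All 6 further regions in the window of Rian, the next noncoding RNA of the cluster, were lower in male controls as well (background 14.4%). Their differences were -0.42 to -0.64, and 2 of them also lay in the window of Rtl1. The 1 region of Mirg gave 0.13 and did not pass. Leaving out male control 1 ended the call at the Meg3 start (adjusted p = 0.0581 by limma), and no left-out library ended the call of the other 2 regions.

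In the Snrpn gene the intronic regions at +41.5 kb and +92.2 kb differed by -0.60 (SE 0.142, adjusted p = 0.00237 by limma) and -0.55 (SE 0.141, adjusted p = 0.00449 by limma). At +41.5 kb the fold enrichment was 3.61, 4.69 and 5.29 in diestrus controls, 3.48, 3.6 and 3.51 in those in proestrus and 3.44, 3.17 and 3.07 in male controls, with all males below all females. The start region showed -0.35 (SE 0.137, adjusted p = 0.0544 by limma) and did not pass. All 5 regions of Snhg14, the long antisense transcript of the same cluster, were lower in male controls (background 14.4%), by -0.39 to -0.70. The Peg3 start region differed by -0.44 (SE 0.142, adjusted p = 0.0212 by limma), a call that ended without any 1 of 5 libraries, the male controls 1 to 3, diestrus control 2 and proestrus control 3 (differences of -0.39 to -0.51). Of 7 regions of its partner Usp29, 5 were lower in male controls (background 14.4%).

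The region downstream of Peg10, chr6:4762264-4762673, lies outside annotated genes in the tandem repeat printed above. Its fold enrichment was 6.71, 9.6 and 7.68 in diestrus controls, 5.28, 7.08 and 6.63 in proestrus controls and 6.37, 4.96 and 5.38 in male controls, a centred log2 difference of -0.64 (SE 0.143, adjusted p = 0.00122 by limma). Reads from such a repeat can be placed at more than 1 position, and the treatment of such reads by the authors was not given in the sources used here. In the opposite direction, the Gnas intronic region at +60 kb, chr2:174343544-174344609, was 7.9, 8.54 and 7.68 in male controls, against 3.49, 5.81 and 4.67 in diestrus and 2.64, 3.95 and 4.17 in proestrus controls. Every male control exceeded every female library, control or cocaine, and both male cocaine libraries (3.28 and 3.95). The centred difference was 0.71 (SE 0.155, adjusted p = 0.00104 by limma), or 1.64-fold. A Gnas transcript with a retained intron is annotated to start within 1 kb of this region, and no library had a peak over that start.

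These directions are relative to the median region of a library. Before centring, the median of all 36847 regions was 0.25 higher in male than in female controls. On that scale no region changed sign among the 8, but only the Gnas region passed; 6 member regions were then higher in males and 0 lower, against 11479 and 620 over all regions. Whether accessibility as a whole differed between the sexes cannot be told apart from differences in library quality with these values.

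Across the other imprinted genes, fixed as a list of 51, the same contrast called 30 of 107 regions lower and 11 higher, with a median of -0.08 against -0.04 over all regions. Together these were 38.3% of the 107, against 24.9% called in either direction over all 36847. Among 39 regions of 17 genes that act on imprints or DNA methylation, such as Trim28 and Dnmt1, 1 was lower and 1 higher (5.13%, against the same 24.9%). The lower one lay at Dnmt3a and the higher one at Tet1. The list was not of 1 direction: 4 of 16 regions of Cobl, 3 of 7 of Herc3 and 1 of 2 of Asb4, a neighbour of Peg10, were higher in male controls and 0 lower. Between diestrus and proestrus controls, 0 of the 20 regions passed in either direction by limma (background 0.214% higher and 0.103% lower), with 1 of 20 at an unadjusted p under 0.05.

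**Figure D3:**
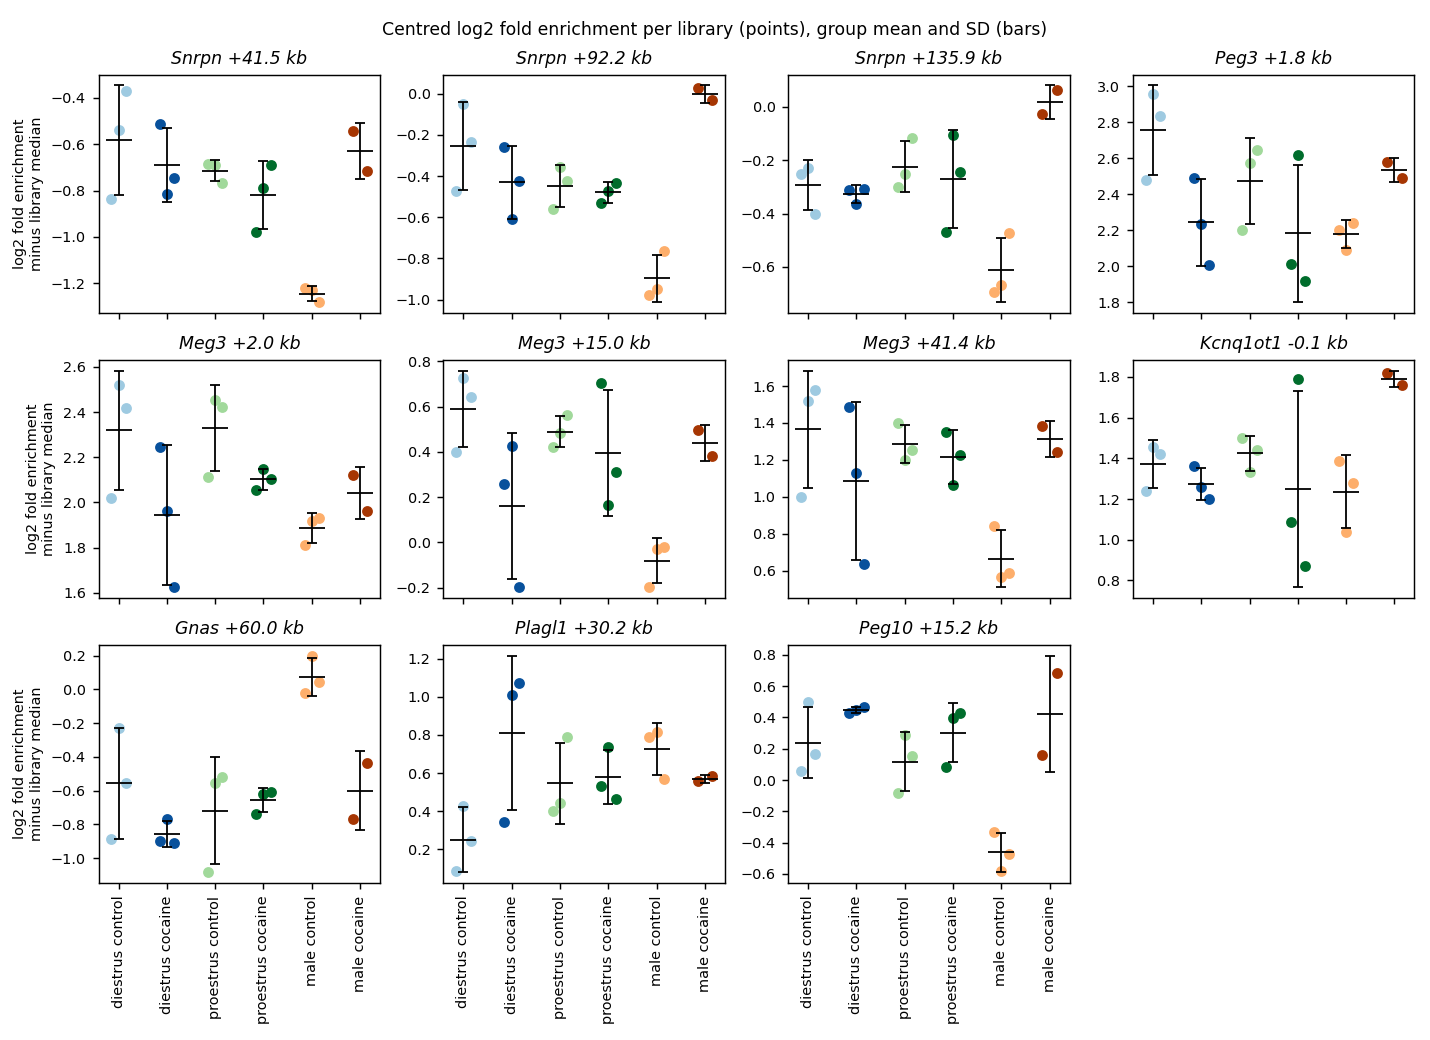
Log2 fold enrichment minus the library median (vertical axes) in the 6 groups (horizontal axes) for the 11 regions that passed the threshold in a cocaine comparison of 1 sex and stage or between male and female controls. Points are libraries, the horizontal mark is the group mean and the bar 1 SD; male controls lie lowest at the Snrpn and Peg10 +15.2 kb regions and highest at the Gnas +60 kb region.

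The effect of cocaine was examined separately in diestrus, proestrus and males. In proestrus, 0 of the 20 regions passed in either direction by limma (background 1.55% higher, 1.85% lower), with 0 at an unadjusted p under 0.05. Differences ranged from -0.29 at the Peg3 start to 0.30 at the downstream Gnas start. The 95% interval at Peg3 ran from -0.62 to 0.04.

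In diestrus, 1 region was higher after cocaine (background 6.16%) and 1 lower (background 4.9%). At the Plagl1 internal start the fold enrichment was 6.84, 9.16 and 8.09 in controls and 10.1, 14.7 and 11.4 after cocaine, so that the lowest cocaine library stood above the highest control. The centred log2 difference was 0.56 (SE 0.166, adjusted p = 0.0271 by limma), and the centred values overlapped, because diestrus cocaine 1 fell among the controls. The Peg3 start region was lower, at the values given above, with a difference of -0.51 (SE 0.164, adjusted p = 0.0376 by limma). Here 2 of the 3 cocaine libraries fell below the lowest control before centring. Leaving out diestrus control 3, diestrus cocaine 2 or diestrus cocaine 3 ended both calls. Leaving out diestrus control 2 ended that of Peg3 and diestrus control 1 that of Plagl1, with differences of -0.40 to -0.65 for Peg3 and 0.43 to 0.79 for Plagl1 over all left-out libraries. With no centring both missed the threshold (adjusted p = 0.181 and 0.0839 by limma). In the same direction, the Meg3 regions at +15 kb and +2.0 kb gave -0.43 (SE 0.164, adjusted p = 0.0799 by limma) and -0.38 (SE 0.15, adjusted p = 0.0921 by limma).

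In males, 6 of the 20 regions were higher after cocaine (background 5.56%) and 1 was lower (background 4%), with a median of 0.30 against 0.09 over all regions. This comparison rests on 2 cocaine libraries, which had the fewest peaks, and it shares the male controls with the comparison of the sexes above. The higher regions were all 3 of Snrpn, Kcnq1ot1, Meg3 at +41.4 kb and Peg10 at +15.2 kb, and the lower one was Gnas at +60 kb. At Snrpn +92.2 kb the fold enrichment was 4.08, 3.86 and 4.39 in controls and 5.68 and 5.23 after cocaine, without overlap, and the centred difference was 0.89 (SE 0.182, adjusted p = 0.00153 by limma). The Snrpn start region went from 4.97, 4.68 and 5.38 to 5.47 and 5.58, with a difference of 0.63 (SE 0.176, adjusted p = 0.0201 by limma). The Snrpn region at +41.5 kb, with 3.44, 3.17 and 3.07 against 3.83 and 3.25, gave 0.61 (SE 0.184, adjusted p = 0.029 by limma).

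Peg10 +15.2 kb gave 0.89 (SE 0.184, adjusted p = 0.00187 by limma), from 6.37, 4.96 and 5.38 to 6.23 and 8.6, and the uncentred groups overlapped. For Meg3 +41.4 kb, with 14.4, 11 and 11.2 against 14.5 and 12.7, the difference was 0.65 (SE 0.187, adjusted p = 0.0233 by limma). Kcnq1ot1, with 21, 15.3 and 18.1 against 19.7 and 18.1, gave 0.55 (SE 0.179, adjusted p = 0.0427 by limma) with overlapping uncentred values. Gnas +60 kb fell by 0.67 on the log2 scale (SE 0.201, adjusted p = 0.0284 by limma), from 7.9, 8.54 and 7.68 to 3.28 and 3.95.

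The scaling weighed more in males than elsewhere. Before centring, the median of all regions was 0.40 lower after cocaine in males, against 0.03 higher in diestrus and 0.09 higher in proestrus. Without centring the 6 higher regions kept their sign but did not pass, with differences of 0.07 to 0.41, and Gnas +60 kb fell by 1.16 on the log2 scale (adjusted p = 0.000384 by limma). On that scale 3 of the 20 regions passed, all lower, beside 12136 lower and 114 higher over all regions. Quantile normalization ended the calls of Kcnq1ot1, Meg3 +41.4 kb and Snrpn +41.5 kb (adjusted p = 0.0966, 0.0713 and 0.0993 by limma). The number of regions that passed went from 7 to 2 without male control 2, 3 without male control 3, 2 without male cocaine 1 and 1 without male cocaine 2. Of the 7 calls, only Snrpn +92.2 kb passed without each of the 17 libraries (0.85 to 0.96), and Peg10 +15.2 kb without each but male cocaine 2, without which it was 0.62 (adjusted p = 0.138 by limma). Male cocaine 1 or male cocaine 2 ended each of the other 5, and at least 1 male control did so too. For Kcnq1ot1 the same held for diestrus control 3, diestrus cocaine 2 and proestrus controls 2 and 3 (0.46 to 0.63 over all left-out libraries).

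Averaged over diestrus, proestrus and males, 1 region was higher (background 7.95%) and 0 lower (background 5.87%). That region was Peg10 +15.2 kb, at 0.43 (SE 0.0991, adjusted p = 0.0039 by limma), which passed without each of the 17 libraries (0.34 to 0.51) and missed the threshold with no centring (adjusted p = 0.0944 by limma). Its difference was 0.89 in males, the value given above, but 0.21 (SE 0.165) in diestrus and 0.18 (SE 0.165) in proestrus, neither of which passed. The male effect was set against the mean female effect in a further contrast. Here 8 regions were higher (background 11.9%) and 0 lower (background 6.53%), the greatest being Snrpn +92.2 kb at 1.00 (SE 0.215, adjusted p = 0.00231 by limma). Without male control 2 the number was 4, and without male cocaine 1 or male cocaine 2 it was 2. For the other imprinted genes, 14 of 107 regions were higher and 2 lower after cocaine in males (15% called, against 9.56% of all regions). The stages gave 8 higher with 1 lower for diestrus (8.41% against 11.1%), but 1 higher with 1 lower for proestrus (1.87% against 3.4%).

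**Figure D4:**
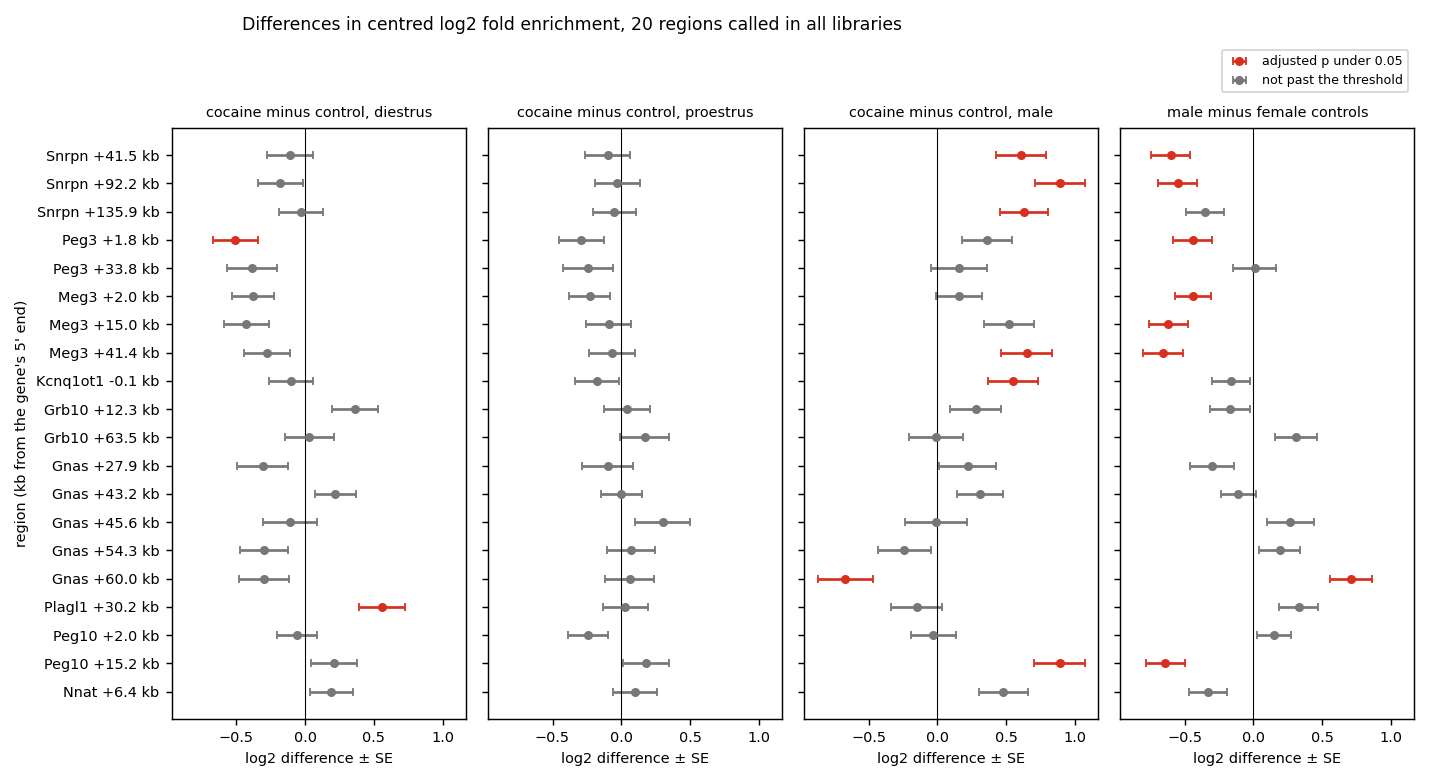
Difference in centred log2 fold enrichment (horizontal axes, point with SE) for the 20 regions called in all 17 libraries (rows), in 4 comparisons. Red points had an adjusted p under 0.05 in limma: 2 in diestrus, 0 in proestrus, 7 in males and 8 between male and female controls.

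Beyond the common regions, the presence or absence of a peak was compared. For the 20 member regions called in 4 to 13 libraries, Fisher's exact test of 8 cocaine against 9 control libraries gave 0 calls in either direction after adjustment, as for all 64304 regions tested (background 0% more often and 0% less often). At an unadjusted p under 0.05, 0 member regions were called more often after cocaine (background 3.81%) and 1 less often (background 9.23%). This was the Snrpn region at +140.7 kb, with a peak in 5 control libraries and 0 cocaine libraries at 2.08 to 3.36 (exact p = 0.0294, adjusted p = 0.321).

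Complete separation within a sex and stage, with a peak in every library of 1 group and in none of the other, has no p below 0.1 at 3 against 3 and was only counted. After cocaine in diestrus, 1 of 55 regions was gained (background 1.16%) and 0 lost (background 1.26%). It lies in an intron of Grb10 48.6 kb from the 5′ end, chr11:11989749-11990391, with 3.92, 4.91 and 2.76 after cocaine and no call in the 3 diestrus controls. In proestrus, 0 were gained (background 2.45%) and 1 lost (background 1.64%), an exonic Peg3 region at +4.7 kb with 2.85, 2.9 and 3.13 in controls. For males, 0 were gained (background 1.66%) and 4 lost (background 16.8%), at H19 -3.8 kb, Kcnq1ot1 -6.6 kb, and Grb10 +87.9 kb and +45.0 kb.

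The same 4 regions were called in all male controls and in no female control (background 7.2%), since both counts use the male controls. Each of the 4 met the criterion of 2 libraries in 1 group through the male controls alone. Kcnq1ot1 -6.6 kb, in an intron of Kcnq1, was called in male controls at 4.33, 3.17 and 4.83 and in no other library. One region was called in all 6 female controls and no male control (background 0.314%). It lies 7.5 kb upstream of Nnat, chr2:157551973-157554389, and had a peak in 10 of 12 female libraries, at 2.4 to 3.56, and in 0 of 5 male libraries. Between the stages, Grb10 +89.5 kb, kept through diestrus controls alone, separated diestrus controls (background 3.96%). Peg3 +4.7 kb, kept through proestrus controls alone, separated proestrus controls (background 0.792%). All of these are weak peaks: with a −log10 q of at least 5, Grb10 +45.0 kb was the 1 member region among them that still separated its groups.

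A single value per gene was formed from the share of the gene window under peaks. Windows were compared per Mb of peak sequence in the library with an exact permutation test over 4000 assignments of treatment within sex and stage, two-sided, over 30018 windows. Grb10 was higher after cocaine by 15.3 bp per Mb (exact permutation p = 0.00425, adjusted p = 0.0471), as was Plagl1 by 7.29 bp per Mb (exact permutation p = 0.003, adjusted p = 0.0412). These were 2 of 10 members (background 6.73% of windows), and 0 were lower (background 2.79%). The 30018 windows include 4893 with no covered base in any library, which could not pass, whereas each member window had some coverage. Peg10 (13.8 bp per Mb, adjusted permutation p = 0.054) and Gnas (25.5 bp per Mb, adjusted permutation p = 0.0612) lay just outside.

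Unscaled, peaks covered 0.591%, 1.1% and 0.827% of the Plagl1 window in diestrus controls and 1.57%, 2.11% and 2.01% after cocaine, 0.938%, 0.69% and 1.1% in proestrus controls and 1.48%, 1.37% and 1.59% after cocaine, without overlap in either stage. In males it was 1.61%, 1.27% and 1.71% in controls and 1.14% and 0.572% after cocaine. For Grb10 the coverage was 3.72%, 3.53% and 4.25% in diestrus controls and 4.21%, 4.54% and 3.83% after cocaine, 2.69%, 2.97% and 3.27% in proestrus controls and 4.54%, 4.23% and 4.2% after cocaine, and 3.84%, 4.17% and 4.45% in male controls and 2.94% and 2.11% after cocaine. The male values therefore point down before scaling. Male cocaine libraries had 42.2 and 50.7 Mb under peaks in all, against 65.4 to 107.1 Mb in the others. With no scaling, and with equal numbers of peaks per library, 0 of the 10 members passed. The Grb10 call was kept only without diestrus cocaine 1 or male control 2, and that of Plagl1 only without diestrus cocaine 1 or male cocaine 2: each of the other 15 left-out libraries ended it, with differences of 13.6 to 18.2 and 5.95 to 8.79 bp per Mb. Leaving out a library also lowers the number of assignments.

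Coverage of the Meg3 window was 57.5%, 76.7% and 75.5% in diestrus controls, 71.4%, 76.6% and 80.3% in proestrus controls and 48.1%, 26% and 42.8% in male controls, with all males below all females. Nnat showed the same order, with 29.7%, 36.8% and 37.6%, then 23.5%, 39.3% and 48.6%, against 25.2%, 13% and 14.3% in males, where male control 1 overlapped proestrus control 1. Total peak sequence was 80.9 to 97.2 Mb in male and 78.1 to 96.9 Mb in female controls. The difference between the sexes in window coverage was not tested.

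**Figure D5:**
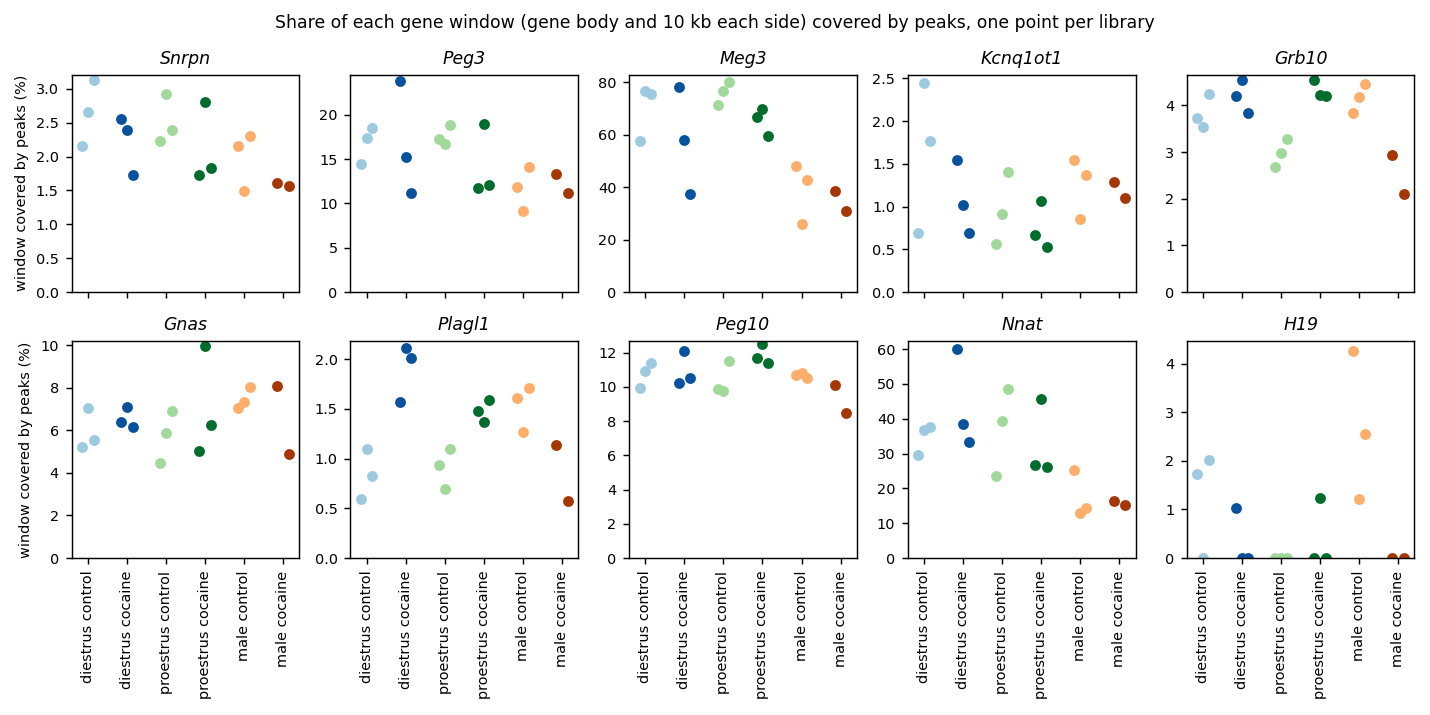
Share of each gene window (gene body and 10 kb on each side) covered by peaks in percent (vertical axes) for the 6 groups (horizontal axes), 1 point per library. Meg3 ranges from 26% to 80.3%, with the male controls below the female controls and diestrus cocaine 3 within the male range, and H19 is at 0 in 10 of 17 libraries.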

How the data were processed

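ATAC-seq peaks of 17 libraries of sorted neuronal nuclei, each from 3 pooled mice, were analysed as deposited. The authors aligned reads to mm10 with BWA and called peaks per library with MACS2; versions were not given in the sources used here. The deposited files give for each peak a fold enrichment (ratio of pileup to a background of 1 value per library), a −log10 p and −log10 q, and a score. No read counts were used, so the count test that the authors ran with DESeq2 was not repeated. The depth of a library was taken from its background pileup, since 100% of fold enrichments were whole multiples of 1 step within 0.01.

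Peaks on 19 autosomes and X were merged across libraries where they overlapped by 1 bp, and regions called in at least 2 libraries of 1 of the 6 groups were kept. Groups followed the sample titles. Log2 fold enrichments of regions called in all 17 libraries were centred on each library's median and tested with limma 3.58.1 (R 4.3.3) over all 36847 regions in 7 contrasts, with Benjamini-Hochberg adjustment at 0.05 within each contrast. Requiring a call in all 17 libraries leaves out regions closed in 1 group. Presence of a peak was tested with Fisher's exact test, two-sided, for regions called in 4 to 13 libraries, and window coverage with an exact permutation test within sex and stage (Python 3.11.15, scipy 1.17.1). The Fisher, limma and permutation tests were each checked on simulated data.

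Alternatives were a −log10 q of at least 5, equal peak numbers (75458), no filter, gene bodies alone, quantile normalization, 20 bins of GC content, no centring, regions called in at least 12 libraries, a replicate block and leaving out each library. Centring within 20 bins of mean level was added after seeing the data. Named were all 10 genes, their start regions and strongest regions, and every region past a test or separating groups. The members and lists were chosen with earlier results of these data known. Sequences were read from GRCm38 with pysam 0.24.0.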

Additional observations from a re-analysis of the deposited data

Results flagged for a closer look

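The effect of cocaine differed between males and the mean of both female stages at 8 of the 20 regions, by a limma test of the difference itself with Benjamini-Hochberg adjustment. All 8 differences were positive (background 11.9% higher and 6.53% lower over all regions). This contrast shares the male controls with the comparison of the sexes. There, all of the 8 but Snrpn +135.9 kb and Kcnq1ot1 passed as lower in male controls. Peg3 +1.8 kb and Meg3 +15 kb did not pass within males. Snrpn differed by 1.00 at +92.2 kb (adjusted p = 0.00231 by limma), 0.72 at +41.5 kb (adjusted p = 0.0202 by limma) and 0.67 at +135.9 kb (adjusted p = 0.0241 by limma). Meg3 differed by 0.82 at +41.4 kb (adjusted p = 0.0103 by limma) and 0.78 at +15 kb (adjusted p = 0.0125 by limma). Peg3 +1.8 kb differed by 0.76 (adjusted p = 0.0145 by limma), Peg10 +15.2 kb by 0.69 (adjusted p = 0.0256 by limma) and the Kcnq1ot1 start by 0.69 (adjusted p = 0.0217 by limma). Snrpn +92.2 kb passed without each of the 17 libraries (0.95 to 1.07). The other 7 did not pass without at least 1 male library. With no centring none of the 8 passed, at differences of 0.12 to 0.45, while the median of all regions was then -0.48. The male arm holds 2 cocaine libraries with the fewest peaks, and their part in these differences was not tested.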

How the results depend on the processing

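Of 26 values past the limma threshold, 22 passed with quantile normalization, 24 with GC bins, 23 with level bins (added after seeing the data), 26 among regions called in at least 12 libraries, 2 with no centring and 14 to 26 with 1 library left out, and 0 changed sign. With no centring the number of regions past the threshold was 0 in diestrus and 3 in males, all lower. For the male minus female effect it was 4, all lower, against 8 higher with centring. Over all regions 13838 were then lower and 176 higher for that effect. Quantile normalization gave 4 in males. For the mean of 3 the number past the threshold was 3 with GC bins and 2 with level bins. Replicate numbers showed no clear pairing: the median correlation was -0.0138 for same-numbered libraries and 0.00485 for the others. Of 36 same-numbered correlations 7 were over 0.1, the highest being 0.431. Of 17 libraries, 7 were closest to one of their own number. Whether same-numbered libraries shared a batch was not tested. The replicate block alone ended 0 of the 26 calls. It gave 2 regions for the mean of 3, and 3 with GC bins. Leaving out 1 library gave 0 to 7 in diestrus (7 without diestrus cocaine 1), 0 to 2 in proestrus (2 without proestrus cocaine 2), 1 to 9 in males, 1 to 3 for the mean (3 without diestrus cocaine 1) and 2 to 10 for the male minus female effect. Kept regions numbered 35 with equal peak numbers and 100 with no filter. Separating regions numbered, with a −log10 q of at least 5, 2 in diestrus, 2 in proestrus, 2 between the sexes and 0 between the stages. With equal peak numbers they were 3, 3, 2 and 0, and 2 in males. Gene bodies alone gave 2 in males and 2 between the sexes. With 1 library left out they were 1 to 7 in diestrus (7 without diestrus control 2), 1 to 2 in proestrus, 4 to 10 in males (10 without male cocaine 1) and 2 to 5 between the stages (5 without diestrus control 2). Windows past the threshold went from 2 to 1 with a −log10 q of at least 5, to 0 with equal peak numbers, no scaling or gene bodies alone, and to 0 to 4 with 1 library left out (4 without diestrus cocaine 1). Without scaling, coverage was lower after cocaine by values of -718.7 bp at Snrpn, -438.8 bp at Peg3, -4527.2 bp at Meg3 and -310.9 bp at Kcnq1ot1; with a −log10 q of at least 5, Meg3 gave -15 bp per Mb. The cause was not tested. Where 1 male cocaine library was left out, limma took the spread of the other from the other groups. Peak calls give no value for a region without a call, so depth limits what its absence shows.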
